A study of Mus musculus with 8 samples.

Results

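The matrix metalloproteinases (MMPs) and their tissue inhibitors (TIMPs) were followed in rib chondrocytes of wild-type and Mir140-null mice through 10 genes, Mmp2, Mmp3, Mmp9, Mmp10, Mmp11, Mmp13, Mmp14, Timp1, Timp2 and Timp3. These 7 MMPs and 3 TIMPs were selected by symbol from 52325 gene identifiers, each identifier counted once, and they were chosen with their levels in these libraries and their difference between the genotypes already known. Their genotype differences are therefore given as a description, with no test. Costal chondrocytes, the cartilage cells of the ribs, had been released with collagenase from 7-day-old mice on a C57BL/6J background, and poly(A) RNA was sequenced from 4 wild-type and 4 Mir140-null libraries. The null allele was made with CRISPR/Cas9 at the Mir140 locus in zygotes of mixed C57BL/6 and CBA background, backcrossed to C57BL/6J, and is carried by all cells rather than by chondrocytes alone. The wild-type and the null mice came from separate lines, both bred from heterozygous animals, and littermates are not described. Other differences between the lines cannot be told apart from genotype. Sex, and whether a library was made from a single mouse, are not given in the sources used here, so the spread between replicates may be partly technical. Values are in TPM, a transcript abundance scaled to a fixed total per library and for transcript length, and can be compared between genes.

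MMPs are zinc-dependent proteinases that are secreted, or anchored in the membrane, as inactive precursors and that cut collagens, proteoglycans and other proteins of the matrix once a propeptide has been removed. The stromelysins cut proteoglycans and can activate other precursors, the collagenases cut the triple helix of fibrillar collagen, the gelatinases degrade unwound collagen, and membrane-type MMPs act at the cell surface. TIMPs block the active site by binding to it, and in the growth plate the balance of these proteins takes part in the removal of hypertrophic cartilage ahead of bone. Because activity depends on processing and inhibition, RNA levels do not measure enzyme activity.

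Several of the genes lie side by side. In GRCm38 (mm10) coordinates with the GENCODE annotation, Mmp13, Mmp3 and Mmp10 belong to a row of 10 MMP genes at chr9:7272514-7699585, a stretch of 427 kilobases whose only protein-coding genes are MMPs. A promoter window is shown for each of the 3 members in this row and for their neighbour Mmp12. These windows were chosen because each holds the letters of the AP-1 element, TGAGTCA, or its reverse complement TGACTCA. The windows run from 250 bases before to 50 bases after the RefSeq start site (build GRCm38.p6), all on the + strand, and capitals mark the AP-1 letters.
Mmp3, chr9:7445572-7445871: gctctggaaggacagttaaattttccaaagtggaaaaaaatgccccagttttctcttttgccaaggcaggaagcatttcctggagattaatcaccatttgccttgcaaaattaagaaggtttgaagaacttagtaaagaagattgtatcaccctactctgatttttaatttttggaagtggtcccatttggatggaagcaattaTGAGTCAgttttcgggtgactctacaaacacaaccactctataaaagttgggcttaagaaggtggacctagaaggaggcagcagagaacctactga
Mmp12, chr9:7347124-7347423: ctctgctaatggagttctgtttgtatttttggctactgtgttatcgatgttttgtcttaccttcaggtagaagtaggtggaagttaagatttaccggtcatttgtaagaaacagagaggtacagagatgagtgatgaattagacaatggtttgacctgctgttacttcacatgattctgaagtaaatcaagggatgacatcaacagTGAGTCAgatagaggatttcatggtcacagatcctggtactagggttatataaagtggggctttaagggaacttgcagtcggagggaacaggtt
Mmp10, chr9:7502092-7502391: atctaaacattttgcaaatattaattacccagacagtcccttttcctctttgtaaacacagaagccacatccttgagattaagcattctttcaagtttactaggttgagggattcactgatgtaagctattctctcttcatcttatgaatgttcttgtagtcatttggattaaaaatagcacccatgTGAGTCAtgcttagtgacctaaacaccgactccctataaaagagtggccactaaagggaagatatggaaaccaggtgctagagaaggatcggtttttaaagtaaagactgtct
Mmp13, chr9:7272264-7272563: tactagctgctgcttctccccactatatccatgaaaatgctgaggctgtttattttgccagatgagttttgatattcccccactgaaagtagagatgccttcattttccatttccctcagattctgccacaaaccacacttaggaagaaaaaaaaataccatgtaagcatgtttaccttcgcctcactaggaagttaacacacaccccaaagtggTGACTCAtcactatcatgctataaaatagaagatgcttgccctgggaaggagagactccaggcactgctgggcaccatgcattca

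In the printed windows the AP-1 letters began 46 bases before the start of Mmp3, 44 before Mmp12, 63 before Mmp10 and 35 before Mmp13. Mmp12 had another RefSeq window, beginning at chr9:7344147, nearer its annotated gene start (7344381). No AP-1 letters were found in that window. They were found, on either strand, in 3 of the 8 members with an entry in the RefSeq promoter table, namely Mmp3, Mmp10 and Mmp13, and in 4 of 14 other MMP and TIMP genes, namely Mmp12, Mmp1a, Mmp1b and Mmp7. All 7 of these genes are in the row on chromosome 9. Counted by gene in the same way, 5.95% of all 27025 genes held the letters, and 5.2% of all 32851 promoter windows did. The Ets-type letters AGGAAG, or CTTCCT, were in 5 of the 8 members, in 38.4% of all genes and in 35.4% of all windows. A match describes letters in the window and does not show that a factor binds there.

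Mir140 itself could not serve as a check of the genotype. It had a value above 0 in a single library, Mir140-null replicate 2 by its label (8.86 TPM), and was listed at 0 in the other 7, and a short hairpin RNA is poorly captured in a poly(A) library. The mice themselves had been genotyped by PCR and Sanger sequencing. The chondrocyte markers fitted the labelled tissue, with a summed level over 10 genes of 59300 to 74200 TPM in wild-type and 43600 to 59900 TPM in Mir140-null libraries, of which 1 gene rose and 3 fell. Mir140-null replicates 1 and 2 stood apart from the other 6 libraries. The 8 fibroblast and perichondrium markers summed to 592 and 747 TPM there. The sums were 5330 and 3880 TPM in Mir140-null replicates 3 and 4 and 3120 to 5970 TPM in wild-type. Only Pdgfra of the list passed the test between genotypes, and it went the other way, being higher in the null. It had 34.5 and 36.5 TPM in null replicates 1 and 2, against 31.5 and 34.3 TPM in replicates 3 and 4 and 11.8 to 19.8 TPM in wild-type. The 6 osteoblast markers gave 6.73 and 6.31 TPM against 33.5 and 25.7 TPM, and the 6 erythroid markers 432 and 257 TPM against 1730 and 1370 TPM, in the same order of libraries. In such bulk RNA, fewer cells of a type and less RNA per cell cannot be told apart.

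Mmp3 (stromelysin-1) was the member with the largest difference between the genotypes. It stood at 48.0, 102, 76.2 and 111 TPM in wild-type replicates 1 to 4 and at 994, 619, 457 and 529 TPM in null replicates 1 to 4. Every null library was above every wild-type library, and null replicate 1 was the highest of all. The means were 84.3 ± 28.4 and 650 ± 239 TPM (SD, n = 4 each), a 7.71-fold difference, and the log2 difference of TPM + 1 was 2.94 with a standard error (SE) of 0.32. With Mir140-null replicates 3 and 4 alone, a choice made after seeing the marker levels, Mmp3 was still 5.85-fold above the wild-type mean.

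Mmp10 (stromelysin-2), the closest relative of Mmp3 in sequence, was also higher in the null. Wild-type replicates 1 to 4 had 10.9, 10.02, 15.4 and 13.9 TPM and null replicates 1 to 4 had 22.4, 20.3, 26.7 and 27.1 TPM. The groups did not overlap, and the null libraries lay close together. The log2 difference was 0.90 (SE 0.17), a 1.92-fold difference of the means. The ratio of Mmp3 to Mmp10 ran from 4.4 to 10.2 in wild-type and from 17.1 to 44.3 in null libraries. Part of the Mmp10 value cannot be separated from Mmp3: of the 1692 stretches of 31 bases in Mmp10 transcripts, 11.9% occur in another gene, chiefly Mmp3, and 14.6% of those of Mmp3 occur elsewhere, chiefly in Mmp10. How far shared reads enter the Mmp10 difference was not tested.

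Mmp11 (stromelysin-3), which unlike the other stromelysins is activated inside the cell, was the least abundant member. It ranged from 0.701 to 3.12 TPM in wild-type and from 0.122 to 6.02 TPM in null libraries, with its lowest value in null replicate 2 and its highest in null replicate 3. The genotypes overlapped fully, and the log2 difference of -0.15 was smaller than its SE of 0.56.

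Mmp13 (collagenase-3) is the main enzyme that cuts type II collagen and is typical of hypertrophic chondrocytes. It had 15.8, 15.5, 19.5 and 20.97 TPM in wild-type replicates 1 to 4 and 20.8, 21.1, 35.2 and 34.9 TPM in null replicates 1 to 4. Null replicates 3 and 4 were above all wild-type libraries, whereas null replicates 1 and 2 were level with wild-type replicate 4. The log2 difference was 0.58 (SE 0.21), and 0.94 with null replicates 3 and 4 alone. The 6 hypertrophic markers summed to 137 to 322 TPM in wild-type and 141 to 240 TPM in null libraries. Among them Col10a1 varied widely, from 25.2 to 167 TPM in wild-type and from 39.5 to 66.2 TPM in null libraries. Of 5 tested hypertrophic markers 1 fell and none rose, beside 6.40% and 10.5% of all tested genes. The part of hypertrophic cells in the Mmp13 level was not tested.

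**Figure D1:**
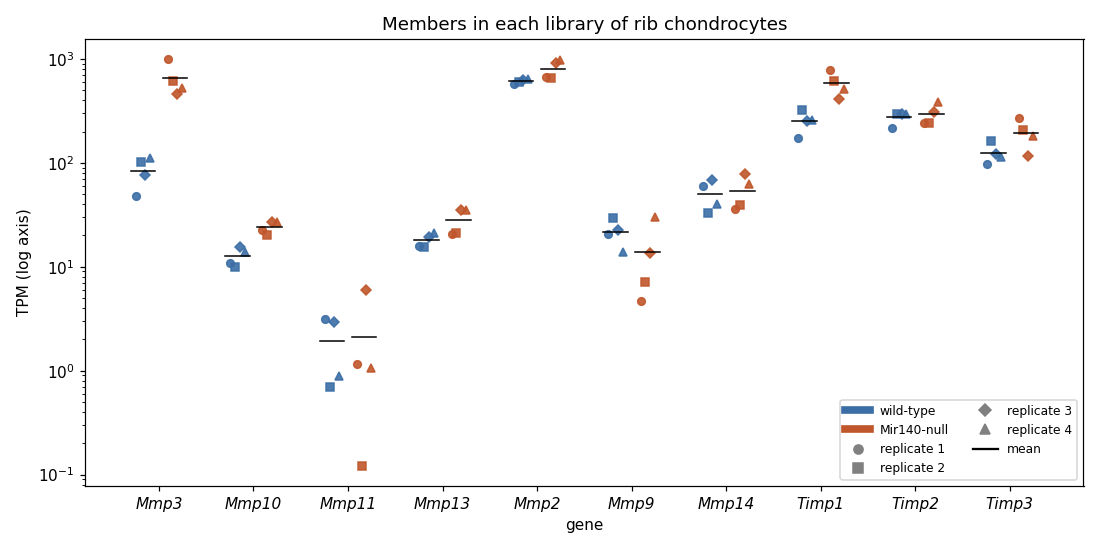
TPM of the 10 members (log axis) in the 4 wild-type (blue) and 4 Mir140-null (orange) libraries, marker shape giving the replicate and the black line the mean. For Mmp3, Mmp10, Mmp2 and Timp1 the orange points all lie above the blue points, and the Mmp11 and Mmp9 points of the genotypes intermingle.

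Mmp2 (gelatinase A), which is activated at the cell surface, was the most abundant MMP in wild-type libraries. Its wild-type levels lay within a narrow range, at 580, 595, 632 and 635 TPM, whereas null replicates 1 to 4 had 673, 648, 913 and 985 TPM. The groups did not overlap, but null replicate 2 was only just above the highest wild-type library. The log2 difference was 0.38 (SE 0.15), and it was 0.64 with null replicates 3 and 4 alone.

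Mmp9 (gelatinase B), which is made by osteoclasts and neutrophils and is needed for vessels to enter the growth plate, did not separate the genotypes. Wild-type replicates 1 to 4 had 20.7, 29.8, 22.7 and 13.9 TPM and null replicates 1 to 4 had 4.72, 7.12, 13.5 and 29.8 TPM. Null replicates 1 and 2 were the lowest of all, and null replicate 4 equalled the highest wild-type library. The log2 difference of -0.88 (SE 0.50) came to -0.06 with null replicates 3 and 4 alone. The 8 osteoclast markers summed to 32.3, 34.1, 75.6 and 60.2 TPM in null replicates 1 to 4 and to 34.6 to 59.1 TPM in wild-type. Ctsk made up most of this sum, at 21.6, 20.4, 52.4 and 42.8 TPM in null replicates 1 to 4 and 19.3 to 43.6 TPM in wild-type. Oscar, Calcr and Dcstamp of that list were under 0.5 TPM in every library, none was at 0 in all 8, and 1 of 5 tested genes, Itgb3, rose. The 9 neutrophil markers summed to 2.22 to 6.13 TPM in wild-type and 6.84 to 10.3 TPM in null, with Elane, Mpo and Retnlg under 0.5 TPM throughout and Camp the 1 of 4 tested genes that rose. The counts of both lists stand beside 10.5% of all tested genes that rose and 6.40% that fell. The part of either cell type in the Mmp9 level was not tested.

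Mmp14 (MT1-MMP) anchors in the membrane and there activates the Mmp2 precursor. It was at 32.9 to 68.0 TPM in wild-type and 36.2 to 77.9 TPM in null libraries, and the ranges overlapped almost entirely. Within the null group it stood at 36.2 and 39.2 TPM in replicates 1 and 2 and at 77.9 and 62.4 TPM in replicates 3 and 4. The log2 difference was 0.09 (SE 0.31).

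Among the inhibitors, Timp1, which binds most soluble MMPs and binds Mmp14 weakly, differed most. Its levels were 173, 323, 254 and 259 TPM in wild-type replicates 1 to 4 and 786, 609, 414 and 519 TPM in null replicates 1 to 4. All null libraries exceeded all wild-type libraries, with the order of the null libraries the same as for Mmp3. The means were 252 ± 61.4 and 582 ± 158 TPM (SD, n = 4 each), a 2.31-fold difference with a log2 difference of 1.20 (SE 0.24). Against null replicates 3 and 4 alone the fold was 1.85.

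Timp2, which also serves as the bridge between Mmp14 and the Mmp2 precursor, was close between the genotypes. It ranged from 217 to 297 TPM in wild-type and from 239 to 386 TPM in null libraries. The ranges overlapped, with a log2 difference of 0.07 (SE 0.18), whose size was below the spread between replicates.

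Timp3 binds to the matrix and inhibits several ADAM proteinases besides MMPs. It had 97.7, 162, 120.5 and 115 TPM in wild-type replicates 1 to 4 and 273, 207, 117 and 181 TPM in null replicates 1 to 4. Null replicate 3 lay within the wild-type range and the other 3 null libraries were above it. The log2 difference was 0.61 (SE 0.26), and 0.26 with null replicates 3 and 4 alone. Timp1 lies inside Syn1 and Timp3 inside Syn3, both on the opposite strand, and these host genes averaged at most 3.6 TPM in either genotype. Mmp11 overlaps Chchd10 on the opposite strand (3.04 TPM in wild-type, 3.6 TPM in null), and Timp2 overlaps Cep295nl on the same strand (6.22 and 2.43 TPM), where strand cannot tell the reads apart.

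In counts, 4 of the 10 members did not overlap between the genotypes, all with the null higher, beside 15.7% of the 17177 genes tested that separated in that direction and 10.2% in the other. The median log2 difference was 0.48 over the members and -0.01 over all tested genes. Since the members were chosen on this contrast, nothing is read from these counts.

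The composition of the MMP message was different between the genotypes. The 7 MMPs together gave 737, 786, 836 and 836 TPM in wild-type replicates 1 to 4 and 1753, 1355, 1529 and 1670 TPM in null replicates 1 to 4. Mmp2 supplied 75.5 to 78.6% of this sum in wild-type and 38.4 to 59.7% in null libraries, while Mmp3 supplied 6.51 to 13.3% and 29.9 to 56.7%. Mmp3 and Mmp2 therefore accounted for most of the sum in every library, with the share of Mmp3 larger in the null.

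The 3 TIMPs together gave 488, 779, 671 and 666 TPM in wild-type and 1298, 1056, 837 and 1086 TPM in null replicates 1 to 4. Both sums were separate between the genotypes. Their ratio was not: summed MMP over summed TIMP ran from 1.01 to 1.51 in wild-type and from 1.28 to 1.83 in null libraries, with a log2 difference of 0.26. Single pairs behaved differently. Mmp3 over Timp1 was 0.277 to 0.429 in wild-type and 1.02 to 1.27 in null libraries, without overlap, whereas Mmp2 over Timp2 was 2.03 to 2.66 and 2.55 to 2.99. Mmp14 over Timp2 overlapped as well, at 0.112 to 0.273 and 0.151 to 0.255.

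**Figure D2:**
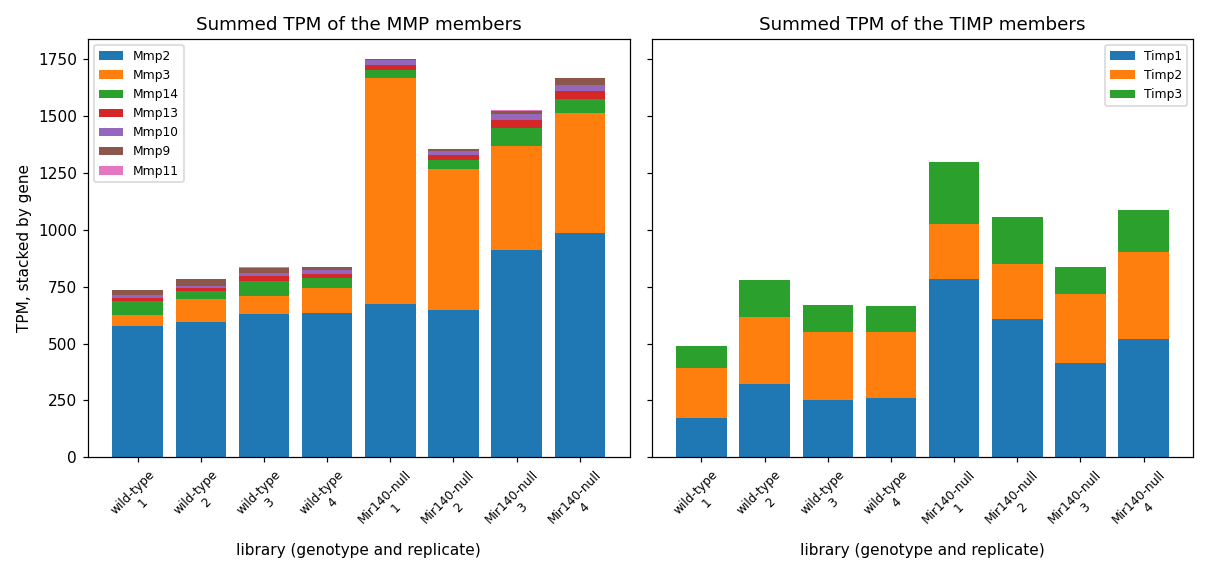
Summed TPM of the 7 MMP members (left) and the 3 TIMP members (right) in each library, stacked by gene, on a common axis from 0. The Mmp3 segment makes up 6.51 to 13.3% of the MMP bar in wild-type and 29.9 to 56.7% in Mir140-null libraries, and both bars are taller in all 4 null libraries.

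Ordered by mean TPM, wild-type chondrocytes had Mmp2 first (610), followed by Timp2 (275), Timp1 (252), Timp3 (124), Mmp3 (84.3), Mmp14 (50.1), Mmp9 (21.8), Mmp13 (17.9), Mmp10 (12.6) and Mmp11 (1.91). Neighbours whose ranges over the 4 libraries overlapped were Timp2 and Timp1, Timp3 and Mmp3, Mmp3 and Mmp14, and Mmp9 and Mmp13. In the null the order began with Mmp2 (805), Mmp3 (650) and Timp1 (582), the ranges of neighbours overlapping, and Timp2 (293) came next. Mmp3 thus moved from the fifth place to the second. Mmp9 (13.8) fell behind Mmp13 (28.0) and Mmp10 (24.1) in mean level, but its range overlapped those of both Mmp13 and Mmp10.

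Mir140-null libraries that differed in fibroblast and perichondrium markers also differed in the members, in 2 directions. Null replicates 1 and 2, low in the sum of these markers, had less Mmp2, Mmp9, Mmp10, Mmp13, Mmp14 and Timp2 than null replicates 3 and 4. They had more Mmp3, Timp1 and Timp3. Mmp11 was mixed. The part of the marker difference in their levels was not tested. Measured without null replicates 1 and 2, the log2 difference was above 0.9 for Mmp3 (2.60), Mmp10 (1.06), Mmp13 (0.94) and Timp1 (0.91), was 0.64 for Mmp2 and 0.53 for Mmp14, and was 0.50 or less for Mmp11, Timp2, Timp3 and Mmp9.

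**Figure D3:**
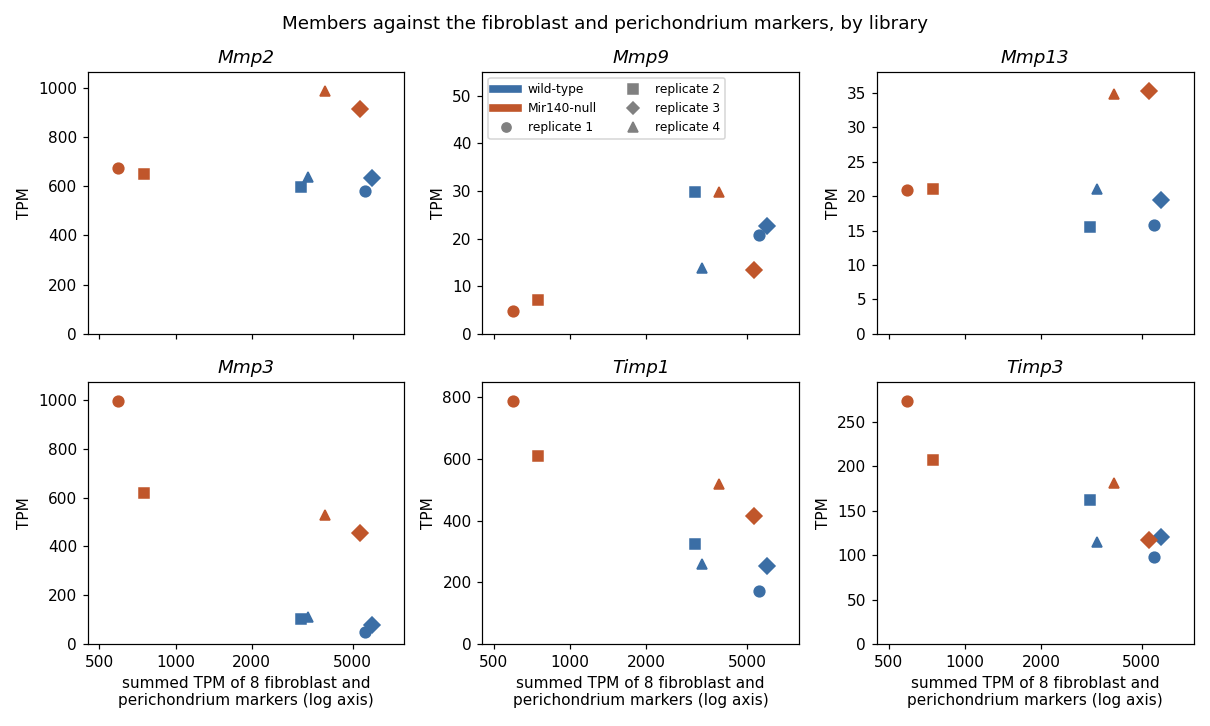
TPM of 6 members in each library (linear axes from 0) against the summed TPM of 8 fibroblast and perichondrium markers (log axis), wild-type in blue and Mir140-null in orange, marker shape giving the replicate. Null replicates 1 and 2, at 592 and 747 TPM of the markers, are lower than null replicates 3 and 4 for Mmp2, Mmp9 and Mmp13 and higher for Mmp3, Timp1 and Timp3.

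The family has 17 further MMP and TIMP genes in the annotation, and 8 of them passed the filter of at least 0.5 TPM in 4 or more libraries. At an adjusted p under 0.05 (limma on log2(TPM + 1), Benjamini-Hochberg over all tested genes) 3 of these rose in the null (Mmp12, Mmp28, Mmp1a), 1 fell (Mmp19) and 4 were not called, beside 10.5% of all tested genes that rose and 6.40% that fell. The median log2 difference of the 8 genes was -0.07. Mmp1a passed the filter only through the null libraries, so its direction was fixed by the filter and its call is not read against these shares. The other 9 (Mmp1b, Mmp7, Mmp8, Mmp17, Mmp20, Mmp21, Mmp24, Mmp25 and Mmp27) were too low to test, and Mmp7 was at 0 in all libraries.

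Mmp12 (macrophage elastase) rose most. It was at 8.05, 14.1, 6.87 and 11.8 TPM in wild-type and at 47.1, 38.2, 54.1 and 48.4 TPM in null replicates 1 to 4. The 4 null libraries lay well above the wild-type libraries, including the libraries low in fibroblast markers, and the log2 difference was 2.13 (SE 0.22, adjusted p = 0.00393). The 8 macrophage markers summed to 22.1 to 40.2 TPM in wild-type and 16.9 to 31.2 TPM in null libraries. Cd68 made up most of this sum, with means of 29.0 TPM in wild-type and 22.8 TPM in null. Of 3 tested genes Lyz2 fell and none rose, beside 6.40% and 10.5% of all tested genes. Adgre1, C1qa and C1qb were under 0.5 TPM in all libraries. The part of macrophages in the Mmp12 level was not tested.

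Mmp28 (epilysin) rose from 5.55 to 11.2 TPM in wild-type to 18.9 to 24.2 TPM in null libraries (log2 difference 1.17, SE 0.21, adjusted p = 0.0128). Mmp19, a secreted MMP, fell, from 3.88 to 6.21 TPM to 1.26 to 2.49 TPM (log2 difference -1.05, SE 0.19, adjusted p = 0.0126). The genotypes did not overlap for either gene. With null replicates 3 and 4 alone Mmp28 differed by 1.06 and Mmp19 by -0.86 on the log2 scale, and both lost the call (adjusted p = 0.0853 and 0.0611).

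Mmp1a is a mouse counterpart of interstitial collagenase, listed by GENCODE as a polymorphic pseudogene. It was barely expressed, at 0.248 to 0.341 TPM in wild-type and 0.615 to 1.06 TPM in null libraries. It passed the filter only through the null libraries and so had to differ, 14.5% of its 31-base stretches occur elsewhere, chiefly in Mmp1b, and its call (adjusted p = 0.0203) was lost without wild-type replicate 1, 3 or 4 (0.0507 to 0.0575). The membrane-type genes Mmp16 (log2 difference -0.28, SE 0.15) and Mmp15 (-0.10, SE 0.18), the transmembrane gene Mmp23 (-0.26, SE 0.24) and the inhibitor Timp4 (-0.03, SE 0.18) were not called. Timp4 was at most 0.834 TPM in any library.

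**Figure D4:**
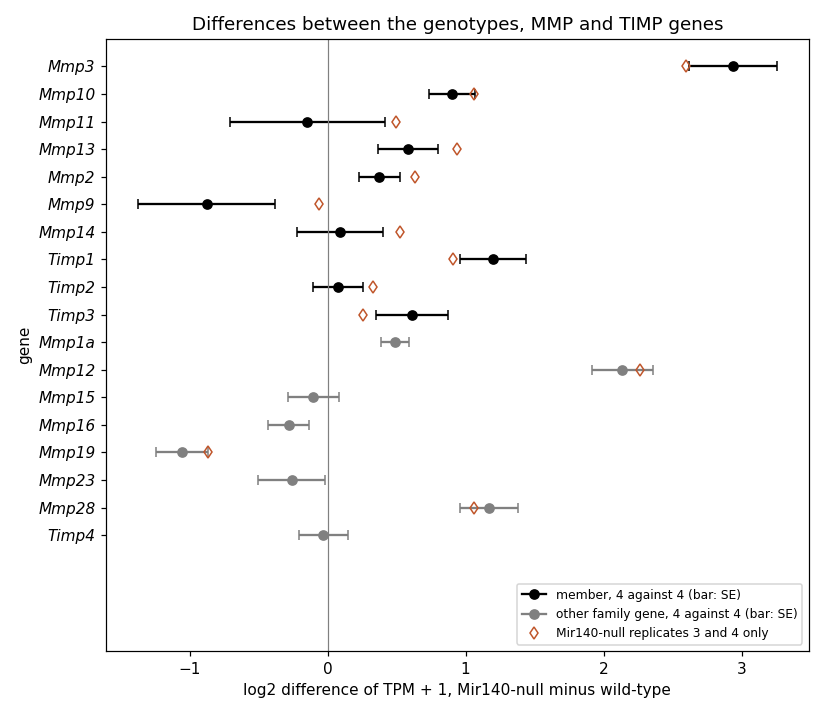
Log2 difference of TPM + 1 (Mir140-null minus wild-type) with its SE for the 10 members (black) and the 8 other MMP and TIMP genes tested (grey). Orange diamonds give the value with Mir140-null replicates 3 and 4 only, for members and for Mmp12, Mmp19 and Mmp28. Mmp3 at 2.94 and Mmp12 at 2.13 lie farthest to the right and Mmp19 at -1.05 farthest to the left.

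On chromosome 9, 5 of the 10 MMP genes of the row passed the filter. From Mmp13 towards Mmp10 the log2 differences were 0.58, 2.13 (Mmp12), 2.94 (Mmp3), 0.49 (Mmp1a) and 0.90, all with the null higher. Mmp13, Mmp3 and Mmp10 were selected on this contrast and Mmp1a passed the filter through the null libraries alone, so Mmp12 is the only test along the row.

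The plasminogen system turns plasminogen into plasmin, which removes the propeptides of several MMPs, and proprotein convertases do the same for Mmp11 and Mmp14. Of 11 listed activators, inhibitors and convertases 8 were tested, 3 rose and 2 fell, with a median log2 difference of 0.21. Of all tested genes, 10.5% rose and 6.40% fell. Both plasminogen activators were called, in opposite directions. Plau (urokinase) was at 111, 106, 91.5 and 125 TPM in wild-type and at 359, 429, 216 and 223 TPM in null replicates 1 to 4 (log2 difference 1.44, SE 0.23, adjusted p = 0.0100). Every null library was above every wild-type library, and null replicates 1 and 2 were the highest.

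Serpine2 (protease nexin-1) fell (log2 difference -0.63, SE 0.13, adjusted p = 0.0174), as did the tissue-type activator Plat (-1.05, SE 0.27, adjusted p = 0.0344). Pcsk6, a convertase, rose from 25.4 to 35.7 TPM to 47.6 to 68.7 TPM (0.84, SE 0.15, adjusted p = 0.0136), and Plaur, the urokinase receptor, rose by 0.42 (SE 0.11, adjusted p = 0.0391). With null replicates 3 and 4 alone, Plau and Pcsk6 kept their calls, and Plat (-0.63), Serpine2 (-0.53) and Plaur (0.46) lost theirs (adjusted p = 0.155, 0.103 and 0.0979). The Plaur call was lost without any single library except Mir140-null replicate 1 (adjusted p = 0.0607 to 0.0996), that of Plat without wild-type replicate 2, 3 or 4 or null replicate 1 or 2 (0.0569 to 0.0871), and that of Serpine2 without wild-type replicate 4 or null replicate 2 (0.0512 to 0.0519).

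**Figure D5:**
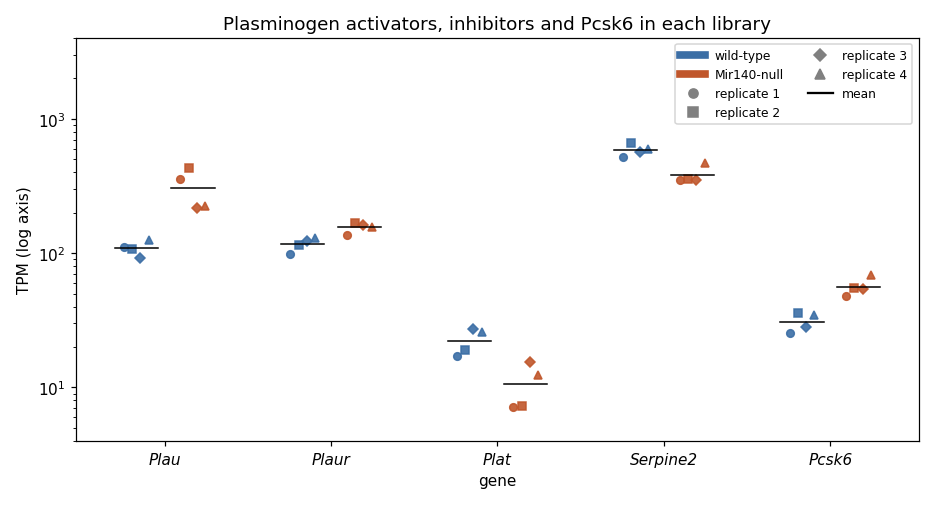
TPM (log axis) of the 5 called genes of the plasminogen system and convertases in each library, blue for wild-type and orange for Mir140-null, marker shape giving the replicate and the black line the mean. The Plau, Plaur and Pcsk6 points are higher in all 4 null libraries, and the Plat and Serpine2 points lower.

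MMP inhibitors outside the TIMP family, listed together with genes of MMP clearance, showed no call. Of Reck, A2m, Tfpi2, Lrp1 and Pzp 4 were tested and none passed in limma, 1 being higher at an unadjusted p under 0.05 (Tfpi2). The median log2 difference was 0.00. A2m (alpha-2-macroglobulin), which traps proteinases of all classes, was abundant at 261 to 434 TPM in wild-type and 252 to 364 TPM in null libraries. Of the 9 surface and soluble proteins that bind or induce MMPs, 5 rose and none fell, with a median of 0.83. The shares of all tested genes were 10.5% and 6.40%. The lists were chosen with earlier results of these data known, so nothing is read from this count. Cd44, the hyaluronan receptor to which Mmp9 and Mmp14 bind, went from 65.1 to 111 TPM in wild-type to 188 to 237 TPM in null libraries (log2 difference 1.24, SE 0.17, adjusted p = 0.00699). Itgb3 (0.83, SE 0.14, adjusted p = 0.0106) and Itgav (1.11, SE 0.20, adjusted p = 0.0135), which pair as an integrin, rose too. The other called genes were Lcn2 (1.504, SE 0.32) and Ddr2 (0.84, SE 0.20). With null replicates 3 and 4 alone only Itgb3 kept its call. The log2 differences of the others were then 1.14 for Cd44 (adjusted p = 0.0527), 0.81 for Itgav (0.0639), 1.06 for Lcn2 (0.0826) and 0.90 for Ddr2 (0.107). Lcn2 and Ddr2 also lost theirs without single libraries, Lcn2 without wild-type replicate 3 or 4 or null replicate 2 (adjusted p = 0.0539 to 0.0561) and Ddr2 without wild-type replicate 4 or null replicate 1, 2 or 4 (0.0520 to 0.0727). Of 7 ADAM sheddases that TIMPs can inhibit, Adam19 alone was called (0.77, SE 0.16, adjusted p = 0.0175), and its call was lost without null replicate 2 (adjusted p = 0.0522) and with null replicates 3 and 4 alone (log2 difference 0.64, adjusted p = 0.104).

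All 14 transcription factors listed for MMP promoters were tested. Of these 2 rose and 4 fell, beside 10.5% and 6.40% of all tested genes, with a median log2 difference of -0.03. The 4 that fell are subunits of AP-1, whose letters stand in the promoter windows printed above. Fos was at 2761, 951, 1418 and 1541 TPM in wild-type and at 254, 305, 571 and 311 TPM in null replicates 1 to 4. Fosb (log2 difference -1.68, SE 0.24, adjusted p = 0.00732), Fos (-2.17, SE 0.35, adjusted p = 0.00993) and Jun (-1.72, SE 0.33, adjusted p = 0.0158) fell, and so did Jund. The groups were separate for each of these, with Fos and Jun highest in wild-type replicate 1. The other subunits Fosl1 (0.09, SE 0.16), Fosl2 (-0.11, SE 0.16) and Junb (-0.53, SE 0.21) were not called. Ets1, which binds the AGGAAG type of letters, rose (1.03, SE 0.20, adjusted p = 0.0153), as did the NF-kB subunit gene Nfkb1 (1.36, SE 0.21, adjusted p = 0.00905). With null replicates 3 and 4 alone Fosb, Jund and Nfkb1 kept their calls, while Fos, Jun and Ets1 lost theirs at log2 differences of -1.87, -1.54 and 0.87 (adjusted p = 0.0720, 0.0745 and 0.0986). Relations between these genes and the MMPs were not tested.

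Over all 6 lists outside the members, 50 of 63 genes were tested, 14 rose and 7 fell, beside 10.5% and 6.40% of all tested genes. The 14 include Mmp1a, which passed the filter only through the null libraries. With null replicates 3 and 4 alone the counts of these lists were 5 and 2. Over all genes tested in that fit 386 rose and 234 fell, so the shares above do not apply to it.

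The deleted locus encodes miR-140-5p and miR-140-3p, and the latter occurs in forms that start 1 base apart and have different seeds. Bases 2 to 8, in capitals, are the seed, and the sequences are shown because direct targeting of a transcript by a miRNA usually relies on a seed match. The first is the RefSeq mature form and the second the same sequence without its first base.
miR-140-3p.2: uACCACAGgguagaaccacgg
miR-140-3p.1: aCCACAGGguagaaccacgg

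In 3′UTRs, taking the longest that GENCODE annotates per gene, 7-base matches to these seeds (capitals) were found in 2 members.
Timp2, miR-140-3p.1: gacagagccCCTGTGGccaattgaa
Timp2, miR-140-3p.2: ggcagggatCTGTGGTgaggggtgc
Mmp9, miR-140-3p.2: actcactcaCTGTGGTtgctggcag
The miR-140-5p match, AACCACT, was in the 3′UTR of none of the 10 members and in 9.7% of 21037 genes. Matches for miR-140-3p.1 were in 1 member and 17% of genes, and for miR-140-3p.2 in 2 members and 16.1% of genes. Neither Timp2 (log2 difference 0.07) nor Mmp9 (-0.88) was among the members with the null higher and no overlap. Those members, Mmp2, Mmp3, Mmp10 and Timp1, have 3′UTRs of 755, 285, 249 and 103 bases and held no match. Of the 17 other MMP and TIMP genes, 3 had a miR-140-5p match (Mmp24, Mmp25 and Timp4), 2 a miR-140-3p.1 match (Mmp17 and Mmp24) and 5 a miR-140-3p.2 match (Mmp12, Mmp17, Mmp19, Mmp24 and Timp4). Of those tested, Mmp12 rose, Mmp19 fell and Timp4 was not called. The members were chosen on the genotype contrast, so nothing is read from which of them hold a match. Direct targeting by miR-140 was not tested.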

How the data were processed

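RNA of 8 libraries, 4 wild-type and 4 Mir140-null, was sequenced to over 12000000 single-end reads of 75 bases per library, per the labels. The authors estimated transcript abundance with Salmon against the mm10 transcriptome and deposited gene-level TPM. The authors' processing notes also name FastQC 0.11.7 and DESeq2, and the Salmon version is not given in the sources used here. The deposited TPM sum to 1000000 per library, so depth cannot be recovered from them, and values near 0 carry no counting interval. Each file repeats 540 identifier lines, which were counted once, and 99.8% of identifiers matched GENCODE symbols.

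Genes at 0.5 TPM or more in at least 4 of 8 libraries (17177) were fitted with limma 3.58.1 in R 4.3.3 on log2(TPM + 1) with a variance trend, genotype as the only term, two-sided, with Benjamini-Hochberg adjustment over all tested genes and a threshold of 0.05. Fold changes on this scale understate the change of low genes. The authors used RUVSeq factors with DESeq2, which needs counts, so here 1 residual factor served as an alternative. The script was tested on simulated data. Members and lists were chosen with earlier results of these data known. All 10 members are named, all other MMP and TIMP genes, and of each further list up to 3 called genes of smallest p in each direction; Plaur, Plat and Pcsk6 come from such a list, and Lcn2, Ddr2, Jund, Fosl1, Fosl2, Junb, A2m, Tfpi2 and the single marker genes were added after their values were seen. 1 gene of the lists is not reported here and is left out of their counts. No set test was run.

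Alternatives were a pseudocount of 0.1, no filter, a mean of at least 5 TPM, median-ratio scaling, quantile normalization, a replicate block, 1 residual factor, each library left out, and, chosen after seeing the data, Mir140-null replicates 3 and 4 only. The replicate numbers did not pair the libraries (correlations of same-numbered residuals -0.01 to 0.07). The 10 marker lists were read as summed TPM per library; endothelial markers gave 15.9 to 37.8 TPM in wild-type and 11.7 to 51.8 TPM in null, and skeletal muscle markers 63 to 96.9 TPM and 34 to 57.7 TPM, with no gene called in either list (limma, 0 and 1 genes at an unadjusted p under 0.05). No 2 libraries held identical values. Promoter, miR-140-3p and gene sequences came from RefSeq and GENCODE tables, and 3′UTRs from GENCODE exons after the stop codon. The RefSeq entries used held no mature miR-140-5p, so its match AACCACT was entered by hand. Mmp2 and Mmp9 had no promoter entry.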

Additional observations from a re-analysis of the deposited data

Results flagged for a closer look

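In 56 groups of 4 libraries (members, other tested MMP and TIMP genes, sums and ratios, in each genotype), 4 had a single library far from the other 3 by Dixon's criterion at 95%, which chance alone gives in about 1 group of 20. Wild-type replicate 1 was the library apart in 3 of them. Timp2 was 217 TPM there against 292 to 297 TPM in the other wild-type libraries (gap over range 0.935), Timp4 was 0.117 TPM against 0.714 to 0.834 TPM (0.832), and the share of Mmp2 in the summed MMPs was 78.6% against 75.5 to 75.9% (0.869). In the null group, Mmp14 over Timp2 was 0.255 in replicate 3 against 0.151 to 0.163 in the other libraries (0.885).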

How the results depend on the processing

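Over all tested genes, 1797 rose and 1100 fell. The counts were 977 and 539 with no filter, 671 and 454 with the replicate block, and 386 and 234 with Mir140-null replicates 3 and 4 only; 605 fell with a mean of at least 5 TPM and 2015 with 1 residual factor. Leaving out single libraries gave 755 (without Mir140-null replicate 2) to 1551 rising and 337 (without wild-type replicate 4) to 1251 falling genes. Of the pathway genes outside the members 14 rose and 7 fell, 10 and 6 with the replicate block, 9 to 13 and 5 to 7 without single libraries, the 9 without Mir140-null replicate 2, and 5 and 2 with null replicates 3 and 4 only. The replicate block also ended the calls of Mmp1a, Plaur, Ddr2, Adam19 and Jun, no filter those of Mmp1a (adjusted p = 0.0523), Plat (0.0733), Plaur (0.0712) and Ddr2 (0.0580), and quantile normalization that of Plaur (0.152). Without single libraries, the log2 difference was 0.92 to 1.05 for the summed MMPs, 0.59 to 0.83 for the summed TIMPs and 0.16 to 0.35 for their ratio. In 4 settings (no filter, a mean of at least 5 TPM, replicate block, 1 residual factor) the members' log2 differences cannot change; in the others they moved by less than 1 replicate SD in 117 of 120 recomputations, and the exceptions were Mmp2, Mmp9 and Mmp13 with null replicates 3 and 4 only. Called pathway genes kept their call in 280 of 328 and lost it in 48, none with a change of direction. Mmp11 gave no value at a mean of at least 5 TPM. Why counts moved was not tested, beyond fewer libraries or genes entering some fits.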
